A study of Mus musculus with 16 samples.

Results

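The genes described here are 10 that place a blood stem cell in its niche or hold it there: Angpt1, Tek and Tie1 of the angiopoietin pathway, the chemokine receptor gene Cxcr4, the integrin chain genes Itga4, Itga6 and Itgb1, and the adhesion genes Cd44, Esam and Alcam. They were chosen by name, as all probe sets whose single gene symbol is a member's, which gave 28 of 45101 probe sets and 10 of 18193 named genes. Alcam and Itga4 had 5 probe sets each, Itgb1 6, Cd44 4, Angpt1 and Itga6 2 each, and Tek, Tie1, Cxcr4 and Esam 1 each. Where a gene is given by a single value, it is that of its brightest probe set by mean log2 intensity on the 16 arrays.

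The study compared gene expression of aged and young mouse haematopoietic stem cells (HSC), and of pluripotent cells derived from aged and young blood, on 16 single-channel Affymetrix arrays. The 7 groups were induced pluripotent stem cells (iPSC) of aged haematopoietic origin (2 arrays), iPSC of young haematopoietic origin (2), embryonic stem cells (ESC, 2, from 2 suppliers), HSC of aged and of young origin recovered after transplantation (2 and 2), and HSC taken at steady state from aged males of 21 to 24 months (3) and young males of 3 to 4 months (3). All cells were labelled C57Bl6 and wild type, and each array was prepared from 10000 cells. The iPSC and ESC were grown on mouse embryonic fibroblast feeders, which can leave fibroblast RNA in those samples, and transplanted HSC have passed through recipients whose age and sex the labels do not give. Replicates are labelled as biological ones, the ESC arrays aside, and whether an array held cells of 1 animal or of several is not stated in the labels.

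Angiopoietin-1, the product of Angpt1, is a secreted ligand of the receptor tyrosine kinase TIE2, which Tek encodes, and Tie1 encodes a related receptor that pairs with TIE2. In bone marrow this pathway is known for keeping stem cells quiescent and attached. CXCR4 is the receptor for the chemokine CXCL12, which niche cells secrete and which holds stem cells in the marrow. Integrins are pairs of an alpha and a beta chain: ITGA4 with ITGB1 binds VCAM1 and fibronectin, and ITGA6 with ITGB1 binds laminins. CD44 binds hyaluronan, ESAM is an adhesion molecule of endothelial junctions that HSC also carry, and ALCAM (CD166) is an immunoglobulin adhesion molecule that binds itself and CD6.

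Levels are log2 intensities, and a difference of 1 is a doubling of the intensity. Array medians lay between 43.4 and 51.8 on the linear scale. The markers fixed for each cell type sat with the labels. The summed linear intensity of 8 HSC markers was 622 to 746 on iPSC and 642 to 699 on ESC arrays, against 6506 to 7905 on transplanted and 21131 to 26380 on steady-state HSC arrays. The sum of 8 pluripotency markers was 19161 to 19600 on iPSC and 20438 to 20781 on ESC arrays, against 157 to 182 on transplanted and 341 to 395 on steady-state HSC arrays. The transplanted arrays stood apart from the other 12. Their lowest correlation between replicates was 0.971 for aged and 0.952 for young, against 0.990 or more in every other group, and the control transcript Actb was as bright at its 5′ as at its 3′ end there only. In the plot of control transcripts, Actb 3′ minus 5′ signal was between −0.263 and −0.0499 on transplanted arrays, against 1.98 to 2.25 on steady-state arrays, 2.08 to 2.69 on iPSC and 1.97 to 2.22 on ESC arrays. Gapdh went the same way, with 1.79 to 2.37 on transplanted arrays against 2.88 to 3.32 on steady-state arrays. This measure is known to move with RNA integrity and with the way the RNA was amplified, so the setting and the handling of the arrays cannot be told apart for the transplanted groups.

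**Figure D1:**
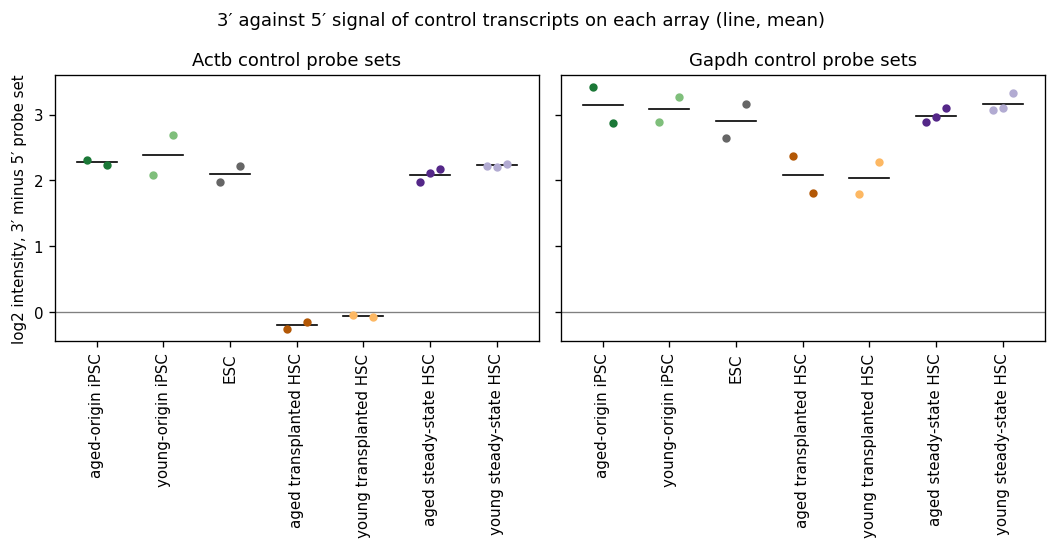
Log2 signal of the 3′ minus the 5′ control probe set of Actb (left) and Gapdh (right) on each of the 16 arrays, by group; points are arrays and lines are means. The 4 transplanted arrays lie between −0.263 and −0.0499 for Actb, below all 12 other arrays.

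The widest contrast in these genes was between cell types. In iPSC, all 10 members were lower than in steady-state HSC, by 3.35-fold for Itga6 to 295-fold for Angpt1. No iPSC array reached a steady-state HSC array for any of them. Of the genes tested, 34.7% fell and 41.8% rose in iPSC (76.4% in either direction) at an adjusted p under 0.05 (limma, all 16 arrays), and 33.7% were lower without overlap of arrays, so a fall of a single member is common in this comparison. The members' median difference was −3.83 on the log2 scale, against 0.17 over all genes tested. The members were chosen as genes of blood stem cells, with earlier results of these data known. A lower median in iPSC could therefore be foreseen, and these medians do not compare the members with other HSC genes. Angpt1, Tie1, Cxcr4 and Itga4 were too dim to be tested among iPSC and ESC, and enter this comparison through their level in HSC. The plot of levels by group shows the step for each gene.

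**Figure D2:**
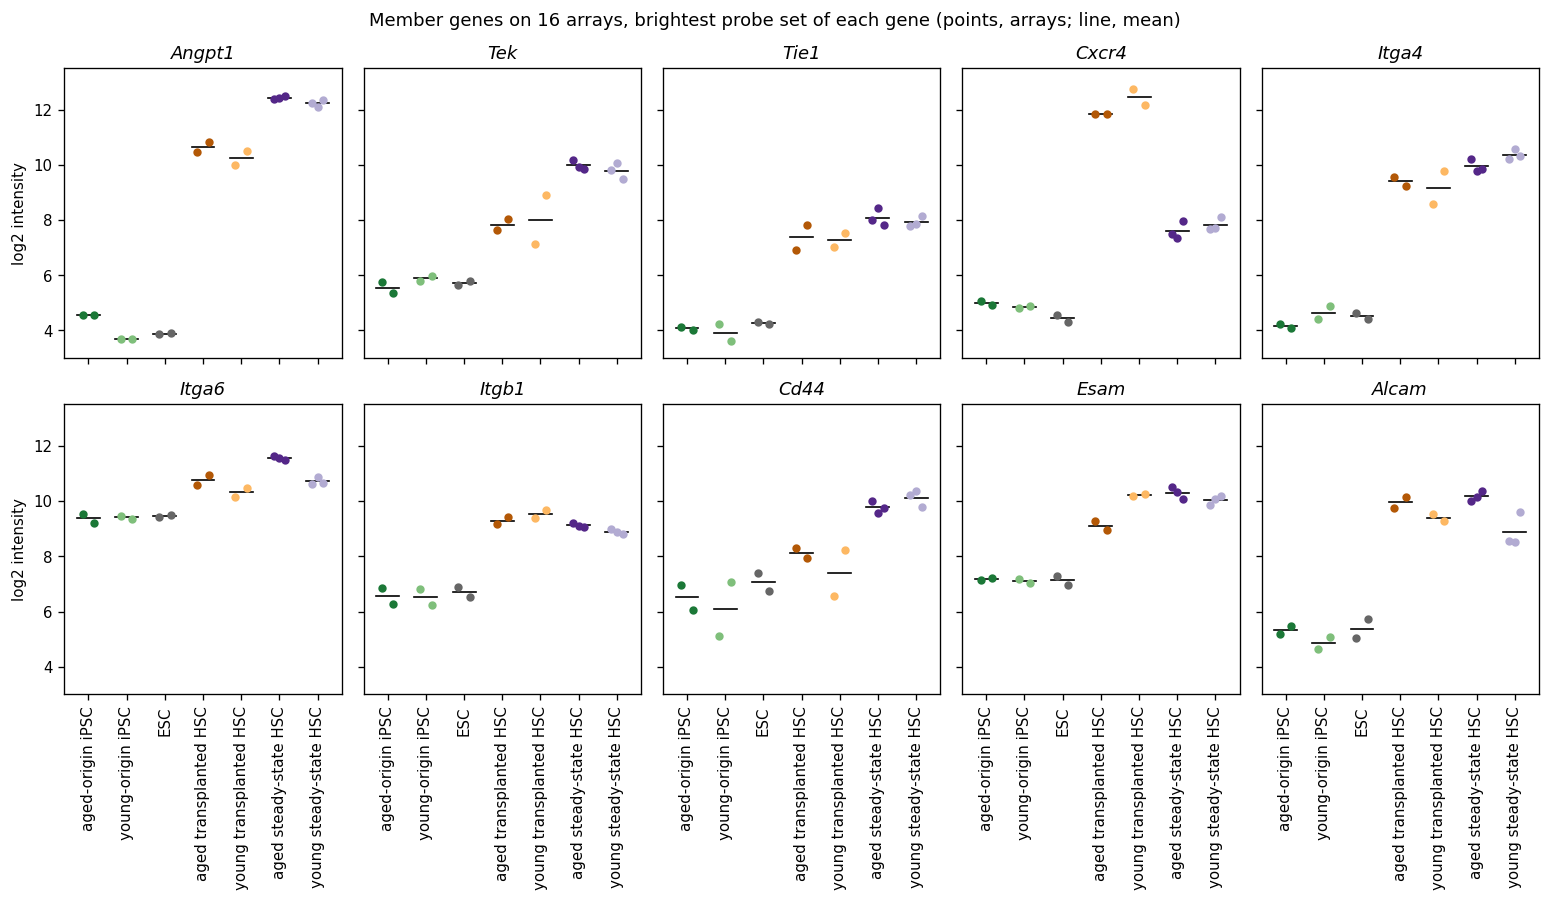
Log2 intensity of the brightest probe set of each of the 10 genes on the 16 arrays, by group; points are arrays and lines are group means. All 10 genes are lower in iPSC and ESC than in steady-state HSC, and Cxcr4 is highest in transplanted HSC.

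Angpt1, the ligand, had a log2 level of 4.57 and 4.56 in aged-origin iPSC, 3.70 and 3.67 in young-origin iPSC, and 3.87 and 3.90 in ESC, against 12.39, 12.40 and 12.48 in aged and 12.25, 12.10 and 12.34 in young steady-state HSC. All pluripotent arrays lay below the 25th percentile of gene levels in their groups, at 4.75 to 4.83 and called the dim line here, so this fold is set against signal near background. The difference between iPSC and steady-state HSC was −8.20 ± 0.12 (SE, limma adjusted p = 1.33e-15). Its receptors followed: Tek differed by −4.17 ± 0.26 (limma adjusted p = 2.49e-09) and Tie1 by −4.01 ± 0.20 (limma adjusted p = 1.77e-10). Tie1 stood at 3.60 to 4.22 on the 4 iPSC arrays, while Tek kept a level of 5.35 to 5.96.

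Itga4, the alpha 4 chain, differed by −5.75 ± 0.20 between iPSC and steady-state HSC (limma adjusted p = 4.93e-12), and Alcam by −4.44 ± 0.22 (1.76e-10). Cd44 differed by −3.65 ± 0.37 (5.58e-07), Esam by −3.04 ± 0.13 (2.77e-11), Cxcr4 by −2.79 ± 0.16 (8.23e-10) and Itgb1 by −2.47 ± 0.15 (2.03e-09), each a limma adjusted p. Itga6, the laminin-binding chain, changed least. It had 9.54 and 9.22 in aged-origin iPSC, 9.45 and 9.36 in young-origin iPSC and 9.43 and 9.49 in ESC, against 11.62, 11.58 and 11.49 in aged and 10.63, 10.88 and 10.65 in young steady-state HSC. Its difference was −1.74 ± 0.12 (limma adjusted p = 8.05e-09), and its level in pluripotent cells was still far above the dim line. Of 23 member probe sets tested in this comparison, 22 fell and 0 rose, where 30.2% of all probe sets fell. The remaining probe set was an Itga4 one (1450155_at) that was near background in both and bright in transplanted HSC only. Probe sets that were dim in iPSC entered through their level in HSC, and several probe sets measure the same gene. The count is therefore not weighed against that share.

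The genes that act with the members did not all go the same way. In iPSC against steady-state HSC, the CXCR4 axis had 1 gene that rose and 9 that fell of 12 tested. Among those that fell were Rac2 (−3.07), Vav1 (−4.39) and Pik3cg (−4.08), blood-cell signalling genes downstream of chemokine receptors. Of 16 integrin adaptors and activators 5 rose and 10 fell, among them Fermt3 (−5.76), the kindlin of blood cells, and Parvg (−3.41), while Bcar1 differed by 3.77. Of 15 other integrin chains 8 rose and 5 fell, and Itgb3 (−5.37), Itga2b (−3.08) and Itgb2 (−4.91) were among those that fell. Of 14 listed ligands of the members 10 were tested, 7 rose and 1 fell, where 41.8% of all genes rose. Those that rose included the laminin chain Lamb1 (6.08), the fibronectin gene Fn1 (4.50) and the laminin chains Lama1 (4.14) and Lama5 (2.68). Of 15 junction, immunoglobulin and selectin genes 7 rose and 7 fell, with the epithelial cadherin Cdh1 at 8.14, and Cd34 at −6.01 and Icam2 at −4.96. Of these genes, Vav1, Itgb2, Cd34 and Icam2 had group means under the dim line in both iPSC groups and Pik3cg in young-origin iPSC, and Lamb1, Lama1 and Cdh1 had means under it in both steady-state groups, so their differences are set against signal near background. Angiopoietin and Tie signalling had 3 up and 6 down of 12, and the cytoskeletal partners of CD44 had 4 up and 3 down of 8. List medians are not compared with one another, and the lists were not tested as sets. They were also chosen with earlier results of these data known.

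All 10 members fell in iPSC, so that fall does not single out any of them. In transplanted against steady-state HSC Cxcr4 rose and Tie1 fell. The promoters of 4 members are shown here. Each is the 250 bases before the annotated start site, on the gene's strand, from RefSeq on GRCm38.p6, for which 7 of the 10 members had an entry (not Angpt1, Itga6 and Esam). They lie at chr16:52453082-52453331 (Alcam, minus strand), chr4:118489850-118490099 (Tie1, minus), chr2:79255176-79255425 (Itga4, plus) and chr1:128592300-128592549 (Cxcr4, minus). Capitals mark letters of core motifs of blood and endothelial transcription factors, searched on both strands: AGGAAG or CGGAAG for ETS factors, TGTGGT for RUNX, and AGATAA or TGATAA for GATA. The motifs of different factors share no letters in these windows.
Alcam: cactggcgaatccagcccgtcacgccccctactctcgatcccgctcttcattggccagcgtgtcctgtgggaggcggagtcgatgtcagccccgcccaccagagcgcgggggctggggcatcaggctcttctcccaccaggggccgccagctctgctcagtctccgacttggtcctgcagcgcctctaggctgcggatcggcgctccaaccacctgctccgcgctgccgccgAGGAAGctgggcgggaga
Tie1: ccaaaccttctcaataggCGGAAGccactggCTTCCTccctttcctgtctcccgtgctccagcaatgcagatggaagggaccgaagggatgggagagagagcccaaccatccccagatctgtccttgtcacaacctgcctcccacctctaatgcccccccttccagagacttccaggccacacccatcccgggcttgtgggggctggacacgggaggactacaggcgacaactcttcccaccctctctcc
Itga4: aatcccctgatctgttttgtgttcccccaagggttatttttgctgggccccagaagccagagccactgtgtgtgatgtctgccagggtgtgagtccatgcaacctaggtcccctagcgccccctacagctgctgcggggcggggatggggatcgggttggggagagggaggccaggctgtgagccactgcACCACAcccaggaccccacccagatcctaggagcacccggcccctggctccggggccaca
Cxcr4: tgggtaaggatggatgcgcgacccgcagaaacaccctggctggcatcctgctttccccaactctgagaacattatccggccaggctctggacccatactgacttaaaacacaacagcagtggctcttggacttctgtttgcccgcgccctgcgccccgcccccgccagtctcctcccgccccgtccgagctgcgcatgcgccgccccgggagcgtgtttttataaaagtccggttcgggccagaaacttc

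Alcam holds AGGAAG with its first base at −18 from the start site, and Tie1 holds CGGAAG at −232 and the reverse complement of AGGAAG at −219. Itga4 holds the reverse complement of TGTGGT at −60, and the Cxcr4 window holds none of these letters. The ETS letters were found in 4 of 7 member windows, against 39.2% of 32851 windows of the same length. The RUNX letters were in 1 of 7 against 14% and the GATA letters in 1 of 7 (Cd44) against 16.6%. These are matches of letters, and no binding was measured.

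By their brightest probe sets, Alcam and Itga6 were the members that differed most with age at steady state, both with a higher mean in aged HSC. Alcam had a higher mean in aged HSC on all 5 of its probe sets, and 2 of those passed the test over all probe sets, as 0.486% of probe sets did in that direction. Itga6 had a higher mean on both of its probe sets, and passed the test over genes. The other 8 genes, the angiopoietin pathway and Cxcr4 among them, differed by between −0.43 and 0.25, with limma adjusted p = 1.00 for each. Overall 1 member gene rose and 0 fell, where 0.96% of genes rose and 0.22% fell (1.18% in either direction). Without overlap of arrays, 4 members were higher in aged HSC (Angpt1, Itga6, Itgb1 and Alcam) and 1 was lower (Itga4), where 8.84% of genes were higher and 9.35% lower in this way.

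Alcam by its brightest probe set (1426301_at) had 9.99, 10.15 and 10.38 in aged steady-state HSC, against 8.57, 8.51 and 9.59 in young. The young arrays were all lower, but the third of them lay near the aged ones. The difference of 1.28 ± 0.28 (2.43-fold) did not pass the test over genes (limma adjusted p = 0.0765). With 1 array left out it ran from 1.09 to 1.63. Of these runs, only that without young array 3 passed (1.63, limma adjusted p = 0.0121). The second probe set (1437466_at) had 10.00, 9.97 and 9.97 in aged and 8.29, 8.45 and 8.17 in young HSC. Here the arrays of each age lay within a narrow band. The difference was 1.67 ± 0.15, or 3.19-fold (limma adjusted p = 0.000956 over 33778 probe sets), and it passed with any 1 of the 10 HSC arrays left out (adjusted p between 0.000853 and 0.0114).

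The third Alcam probe set (1426300_at) had 8.57, 8.23 and 8.53 in aged and 7.23, 7.12 and 7.20 in young steady-state HSC. Its difference was 1.26 ± 0.19 (limma adjusted p = 0.0201), and the call was lost without any 1 of the 6 steady-state arrays (adjusted p up to 0.126). The fourth (1437467_at) had 9.60, 9.29 and 9.82 in aged and 7.57, 7.81 and 8.16 in young HSC and differed by 1.72 ± 0.33 (limma adjusted p = 0.0659) and the fifth (1443086_at), which is dim and scattered from 4.37 to 6.87 in aged HSC, by 1.07 ± 0.59 (limma adjusted p = 1.00). On 4 of the 5 no young array reached an aged one, where 7.07% of probe sets were higher in aged HSC without overlap. With the mean of its 5 probe sets as the gene's value, Alcam differed by 1.40 (limma adjusted p = 0.00823).

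Itga6, which marks HSC in sorting as CD49f, had 11.62, 11.58 and 11.49 in aged steady-state HSC, against 10.63, 10.88 and 10.65 in young. The arrays of the 2 ages did not overlap. The difference of 0.84 ± 0.17, or 1.79-fold, had a limma adjusted p of 0.0497. With any 1 of the 6 steady-state arrays removed the call was lost (limma adjusted p between 0.115 and 0.263). It was also lost with the mean of its probe sets as the gene's value (0.80, limma adjusted p = 0.111). The other Itga6 probe set (1422444_at) had 10.48, 10.83 and 9.88 in aged against 9.61, 9.42 and 9.90 in young HSC, which overlap, and a difference of 0.75 ± 0.30 (limma adjusted p = 0.837 over probe sets). An Itga4 probe set (1456498_at) went the other way, with 6.52 ± 0.11 in aged and 7.75 ± 0.42 in young HSC (SD, n = 3 each) and no overlap, but did not pass (−1.22 ± 0.25, limma adjusted p = 0.0907), and the 4 other Itga4 probe sets differed by between −0.43 and −0.071.

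**Figure D3:**
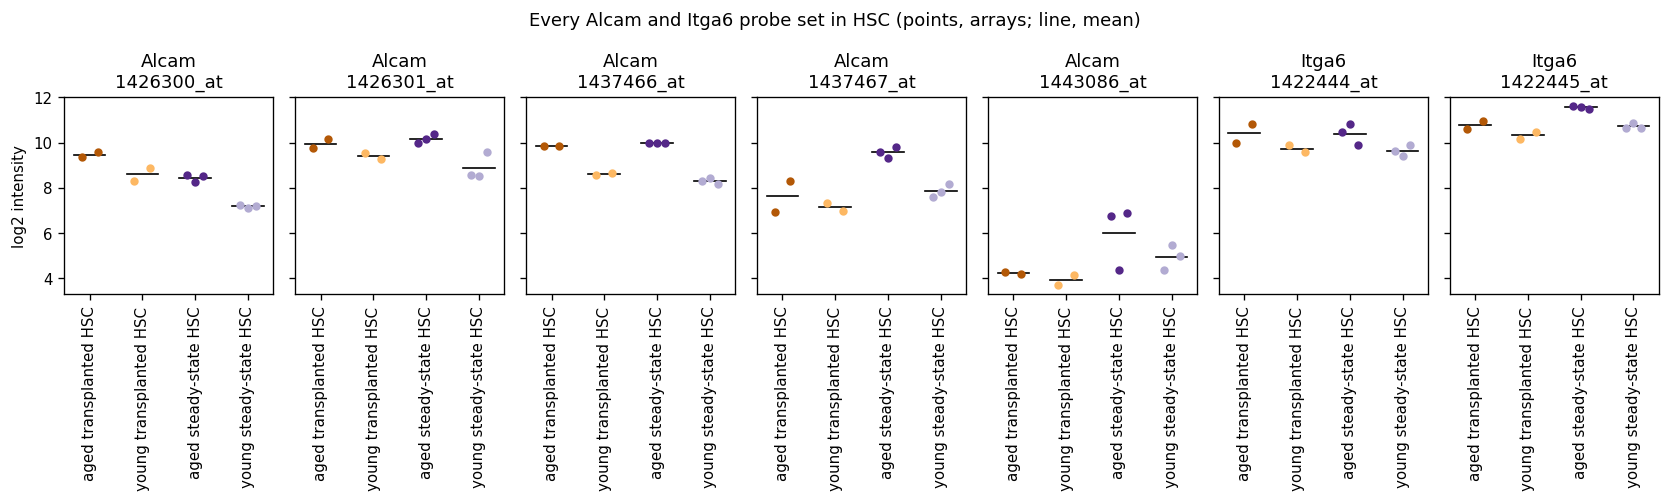
Log2 intensity of every Alcam and Itga6 probe set on the 10 HSC arrays, by group; points are arrays and lines are group means. Alcam 1437466_at lies at 9.97 to 10.00 in aged and 8.17 to 8.45 in young steady-state HSC, and the groups of Itga6 1422444_at overlap at steady state.

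Of the listed genes around the members, 4 rose with age at steady state, where 0.96% of all genes did. They were Selp, which encodes the platelet and endothelial adhesion molecule P-selectin (3.34 ± 0.21, limma adjusted p = 4.13e-05), the junctional adhesion gene Jam2 (1.97, 0.0369), the integrin chain Itgb3 (1.55, 0.0319) and the membrane protease Mmp14, which cleaves CD44 (1.40, 0.0166). These are 2 of 13 junction and selectin genes, 1 of 14 integrin chains and 1 of 8 CD44 partners. Of the 12 Angiopoietin and Tie signalling genes, the 12 of the CXCR4 axis, the 16 integrin adaptors and the 8 ligands tested, 0 rose and 0 fell. The lists were not tested as sets. They were chosen with earlier results of these data known, so their risers cannot be weighed against the share over all genes. The summed intensity of 8 endothelial markers was 916 to 1161 in aged against 542 to 554 in young steady-state HSC, but the markers did not move together. Of 6 tested, Cldn5 (2.61, limma adjusted p = 0.000699) and Kdr (1.45, 0.00722) rose, and Flt1, Emcn, Plvap and Robo4 did not pass. Emcn (6.16 in aged against 6.41 in young) and Robo4 (7.29 against 7.50) had lower means in aged HSC. So did the dim Sox17 (3.95 against 4.12), while Plvap had a higher one (5.39 against 5.23). Cdh5, the defining cadherin, was at 3.95 ± 0.15 in aged and 4.07 ± 0.20 in young HSC (SD, n = 3 each), under the dim line of 4.57. The part of the endothelial markers in the Alcam and Itga6 differences was not tested.

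In transplanted HSC, Alcam again had a higher mean with age on all 5 probe sets, and Esam fell. Of the member genes 0 rose and 1 fell, where 0.55% of genes rose and 0.799% fell (1.35% in either direction). Without overlap of arrays, 2 members were higher in aged transplanted HSC (Itga6 and Alcam) and 2 lower (Cxcr4 and Esam), where 14.2% of genes were higher and 17.5% lower in this way. Alcam by probe set 1437466_at had 9.82 and 9.83 in aged transplanted HSC, against 8.57 and 8.64 in young. That difference of 1.22 ± 0.18 (2.33-fold) passed the test over probe sets (limma adjusted p = 0.0280), as 0.397% of probe sets did in that direction; the call was lost without aged transplanted array 2 or any 1 of the 6 steady-state arrays (adjusted p up to 0.0682). By 1426300_at it had 9.37 and 9.56 in aged against 8.31 and 8.87 in young, a difference of 0.88 ± 0.24 (limma adjusted p = 0.128), and by its brightest probe set 9.74 and 10.16 against 9.51 and 9.29, a difference of 0.55 ± 0.34 (adjusted p = 0.496 over genes). Averaged over both settings, 1437466_at differed by 1.45 ± 0.12 (limma adjusted p = 0.000572) and 1426300_at by 1.07 ± 0.15 (0.0139), where 0.577% of probe sets rose. The first of these passed in each alternative run, and the call of 1426300_at was lost without aged steady-state array 3 or young steady-state array 2 or 3 (adjusted p up to 0.0534), with array weights (0.0618) and with the replicate block (0.0796).

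Itga6 had 10.59 and 10.95 in aged transplanted HSC, against 10.16 and 10.48 in young. The groups lay side by side without overlap, but the difference of 0.45 ± 0.21 did not pass (limma adjusted p = 0.344). Averaged over both settings it was 0.65 ± 0.14 (limma adjusted p = 0.0436), and 1.82% of genes passed that test. That call was lost without aged transplanted array 2 or any 1 of the 6 steady-state arrays (limma adjusted p between 0.0832 and 0.128), and with the mean of its probe sets as the gene's value (0.0551). Esam had 9.26 and 8.95 in aged transplanted HSC, against 10.20 and 10.24 in young. The aged arrays were the lowest of the 10 HSC arrays, since steady-state levels were 10.51, 10.32 and 10.08 in aged and 9.87, 10.09 and 10.20 in young HSC. The difference of −1.12 ± 0.22, or 2.17-fold lower, had a limma adjusted p of 0.0410. It was lost without aged transplanted array 2 (−0.96, adjusted p = 0.120) or any 1 of the 6 steady-state arrays (adjusted p up to 0.0862), and in the test over all probe sets (adjusted p = 0.0591). When only the 4 transplanted arrays, which scatter more, set the spread, 0 genes of the whole table passed and Esam had an adjusted p of 0.999; the Alcam probe set 1437466_at had 0.993.

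Cxcr4 had 11.83 and 11.83 in aged transplanted HSC, against 12.74 and 12.17 in young, a difference of −0.63 ± 0.28 that did not pass (limma adjusted p = 0.325). Cd44 by its brightest probe set had 8.29 and 7.94 against 6.56 and 8.23, where the young arrays lay on both sides of the aged ones. By 1434376_at its mean was lower in aged than in young (8.87 against 9.09), as by 1452483_a_at (7.89 against 8.19). The dim 1443265_at had 3.64 against 3.40. The age difference itself was set against that at steady state for every member. For Esam the transplanted minus the steady-state age difference was −1.37 ± 0.28 (limma adjusted p = 0.116), for Alcam −0.73 ± 0.44 (0.661) and for Itga6 −0.39 ± 0.27 (0.723). Of the 10 members 0 passed that test of the difference, 1 had an unadjusted p under 0.05 (Esam), and 0.125% of all genes passed. The plot of age differences by probe set gives both settings for each of the 24 probe sets tested.

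**Figure D4:**
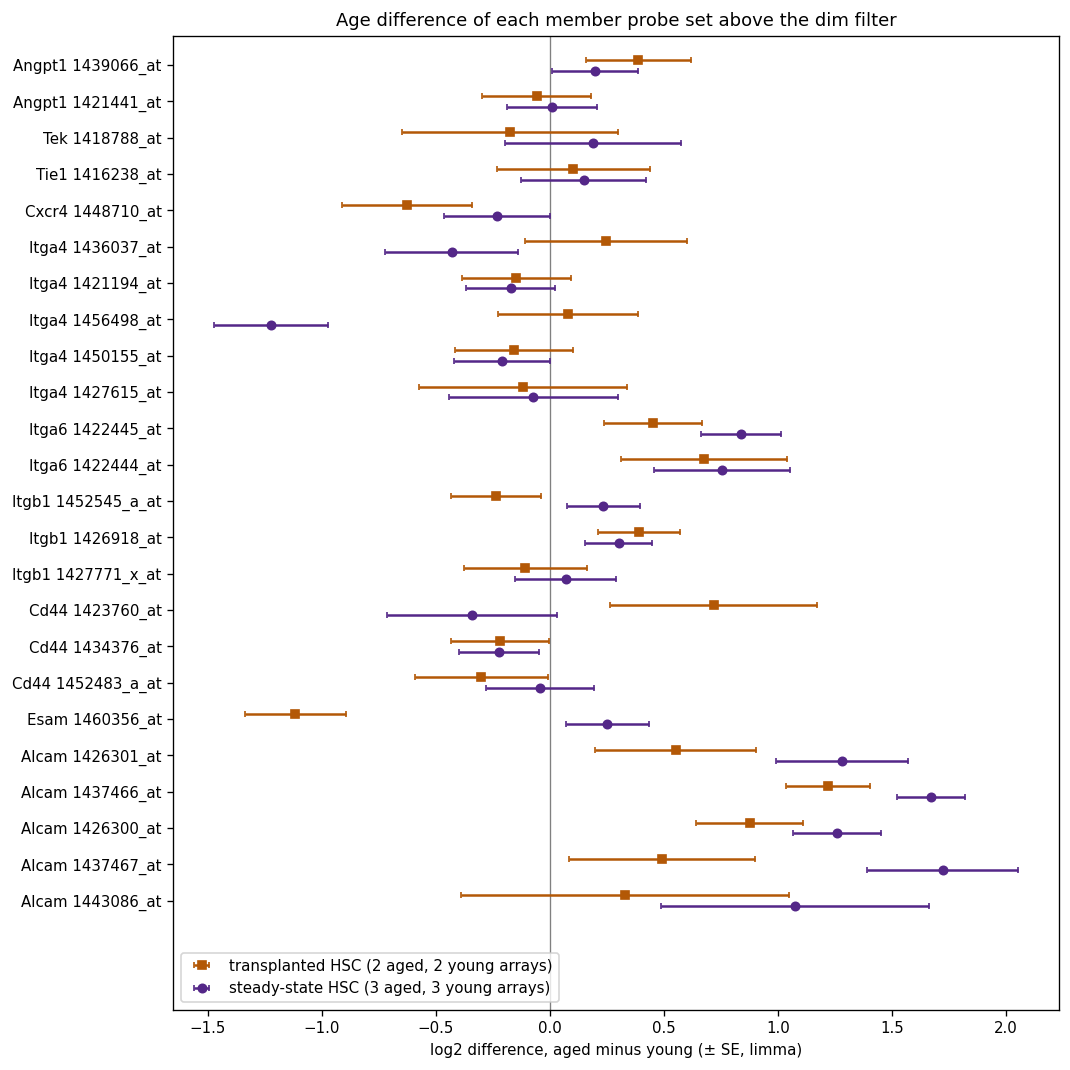
Log2 difference, aged minus young, of the 24 member probe sets above the dim filter, in transplanted (squares) and steady-state HSC (circles); bars are limma standard errors. All 5 Alcam probe sets lie right of 0 in both settings, and Esam lies at −1.12 in transplanted HSC.

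More members were called between settings than with age, but not every member differed more. Alcam differed by 0.14 between settings against 1.28 with age at steady state, and Itga6 by −0.59 against 0.84. Esam differed by −0.51 between settings against −1.12 with age in transplanted HSC. Transplanted HSC had higher Cxcr4 and Itgb1 than steady-state HSC and lower Cd44, Tek, Angpt1, Itga4, Tie1, Itga6 and Esam by the brightest probe sets. That is 2 genes up and 7 down of 10, where 19.8% of genes rose and 50.1% fell (69.9% in either direction). The count of members called is thus near to what the whole table shows, and the median gene itself differed by −0.46 on the log2 scale. That median was −0.16 with the probe sets of a gene averaged, and −0.086 over all probe sets. Fewer HSC of a kind in the sorted cells, less RNA per cell and the handling of the arrays cannot be told apart here. All 8 measured HSC markers fell too, with a median of −1.82.

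By the brightest probe sets, Cxcr4 had the largest difference of the members. It had 11.83 and 11.83 in aged and 12.74 and 12.17 in young transplanted HSC, against 7.49, 7.33 and 7.98 in aged and 7.66, 7.72 and 8.12 in young steady-state HSC. Every transplanted array was above every steady-state array, as was the case for 14.6% of genes; 4 members (Angpt1, Tek, Itga4 and Cd44) were lower without overlap, as were 40.2% of genes. The difference was 4.43 ± 0.18 (21.5-fold, limma adjusted p = 4.52e-08), or 4.88 relative to the median gene. Of 12 genes of the CXCR4 axis 2 rose and 8 fell, where 19.8% of all genes rose and 50.1% fell, and the list was not tested as a set. Among those that fell were Gnai2 (−1.77), the inhibitory G protein chain, Cdc42 (−1.21) and Dpp4 (−2.05), the protease that trims CXCL12. Cxcr4 has a single probe set, so no other measured it here.

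In the angiopoietin pathway, Tek had 7.64 and 8.03 in aged and 7.12 and 8.89 in young transplanted HSC, against 10.18, 9.92 and 9.84 in aged and 9.82, 10.07 and 9.49 in young steady-state HSC. All transplanted arrays were lower, and the difference was −1.97 ± 0.30 (limma adjusted p = 0.000177), or −1.51 relative to the median gene. Tie1 had 6.92 and 7.84 in aged and 7.03 and 7.52 in young transplanted HSC, against 7.80 to 8.43 at steady state, with the highest transplanted array inside that range. It differed by −0.68 ± 0.21 (limma adjusted p = 0.0146), and without aged transplanted array 1 by −0.45 (adjusted p = 0.0634). Around them 3 of 12 signalling genes rose and 5 fell, with the TIE2 ligand Angpt2 at 1.67, Akt1 at −2.16 and Ptpn11 at −2.39.

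Angpt1 gave opposite answers by its 2 probe sets. By 1439066_at it had 10.46 and 10.83 in aged and 10.01 and 10.51 in young transplanted HSC, against 12.39, 12.40, 12.48, 12.25, 12.10 and 12.34 at steady state, a difference of −1.87 ± 0.15 (limma adjusted p = 2.73e-06 over probe sets). By 1421441_at it had 10.95 and 11.03 in aged and 10.87 and 11.22 in young transplanted HSC, against 7.03 to 7.56 at steady state, a difference of 3.77 ± 0.15 (limma adjusted p = 5.08e-08). Neither set of arrays overlapped. The direction of Angpt1 between settings depends on the probe set, and none is given for the gene.

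The same held for Itga4, Cd44 and Alcam. Itga4 fell by 0.87 with its brightest probe set (1436037_at), and rose with the other 4, by 1.33 to 5.17. Probe set 1450155_at was at 9.45 to 9.86 on transplanted arrays and at 4.14 to 4.89, near background, on steady-state arrays. Cd44 differed by −2.19 (1423760_at) and −1.22 (1434376_at), and by 2.32 with 1452483_a_at. Alcam differed by 1.21 with 1426300_at and by −1.33 and −1.40 with 1437467_at and 1443086_at, while its 2 brightest did not pass (0.14 and 0.073). Over all 24 member probe sets tested 11 rose and 10 fell, where 30.6% of probe sets rose and 36% fell. Of these, 4 of the 6 members with more than 1 probe set tested had probe sets called in opposite directions, where 38.3% of 6999 such genes did. In iPSC against steady-state HSC it was 0 of 6 members, where 17.9% of 7049 genes did. In the age comparisons it was 0 of 6999 genes, where few probe sets were called at all. At steady state 164 of 33778 rose with age and 39 fell, and in transplanted HSC 134 and 129, so opposite calls could hardly occur. The sign of the age difference did vary between probe sets. Itgb1 in transplanted HSC had means of 9.29 in aged and 9.53 in young by 1452545_a_at, but 9.77 and 9.38 by 1426918_at.

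**Figure D5:**
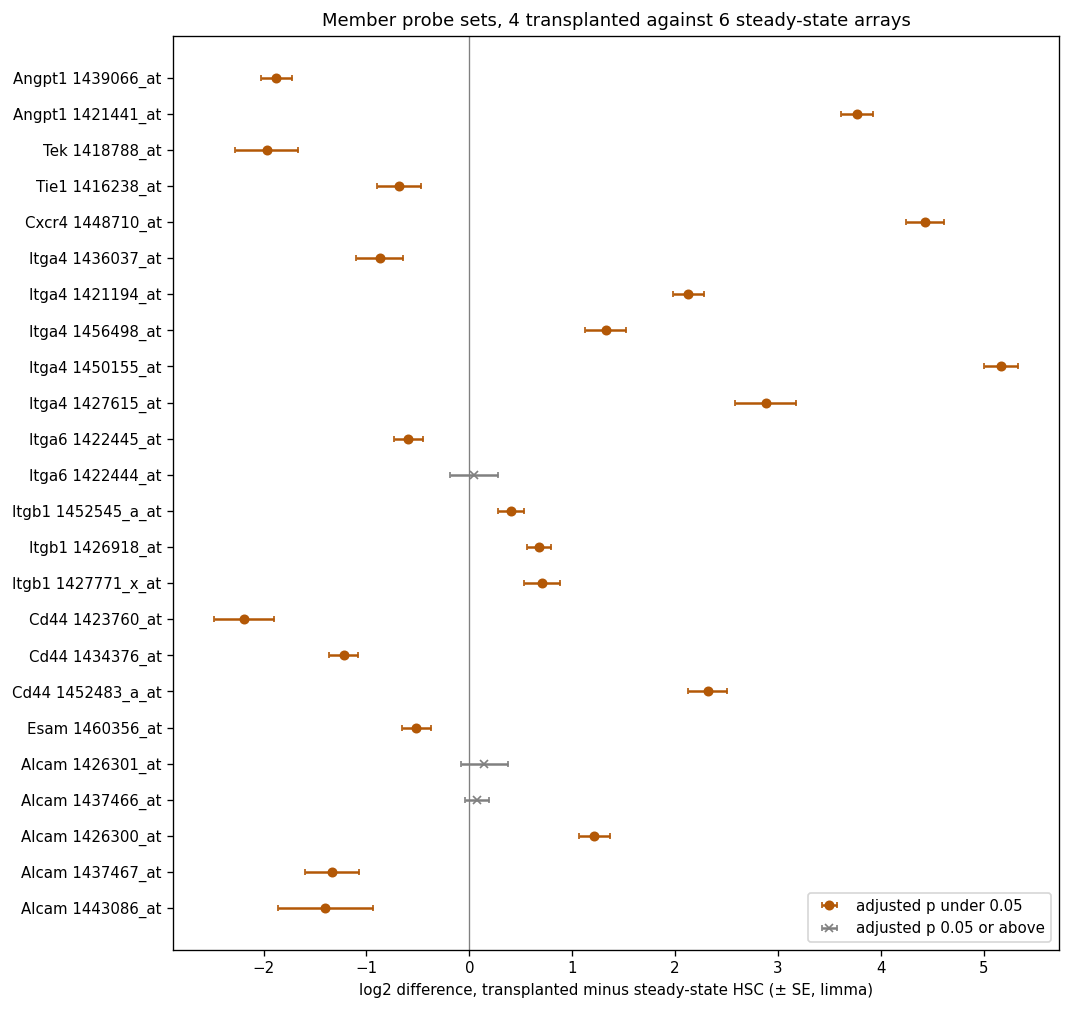
Log2 difference, 4 transplanted minus 6 steady-state HSC arrays, of the 24 member probe sets above the dim filter; bars are limma standard errors and crosses did not pass the test. Probe sets of Angpt1, Itga4, Cd44 and Alcam lie on both sides of 0, and Cxcr4 lies at 4.43.

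Of the members with more than 1 probe set tested, Itgb1, the shared beta chain, was that whose tested probe sets all passed 1 way between settings. Of its dim probe sets that were not tested, 1426919_at and 1426920_x_at had higher means in transplanted HSC and 1438119_at had lower ones. For 1438119_at they were 2.42 in aged and 2.48 in young, against 2.77 in each steady-state group. By its brightest probe set (1452545_a_at), Itgb1 had 9.18 and 9.41 in aged and 9.39 and 9.67 in young transplanted HSC. At steady state it had 9.20, 9.11 and 9.05 in aged and 8.97, 8.87 and 8.81 in young HSC. The 3 probe sets tested differed by 0.41, 0.68 and 0.70, and each passed. With each array centred on its median the gene differed by 0.20 and did not pass (limma adjusted p = 0.173). Itga6 fell by 0.59 ± 0.14 with 1422445_at (limma adjusted p = 0.00262) and differed by 0.046 with the other. Esam fell by 0.51 ± 0.14 (limma adjusted p = 0.00733), which is −0.057 relative to the median gene, and did not pass after quantile normalisation (−0.32, adjusted p = 0.0686). Among the other integrin chains 2 of 14 rose and 5 fell, led by Itga5 (1.96), the fibronectin receptor chain, Itga2b (−1.43) and Itgb2 (−2.04). Of the 8 ligands tested 2 rose and 2 fell, of 13 junction and selectin genes 3 and 6, of 16 adaptors 2 and 6, and of 8 CD44 partners 1 and 6.

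Within the pluripotent cells the members showed no called difference. In aged-origin against young-origin iPSC, 0 of the 6 members above the dim filter passed (Tek, Itga6, Itgb1, Cd44, Esam and Alcam) and 0 had an unadjusted p under 0.05, where 0.00733% of genes passed (limma). In iPSC against ESC it was also 0 and 0, where 0.11% passed. Angpt1, Tie1, Cxcr4 and Itga4 were under the filter. Alcam had 5.17 and 5.48 in aged-origin and 4.63 and 5.09 in young-origin iPSC, a difference of 0.47 ± 0.23 (limma adjusted p = 0.976). Itga6 differed by −0.029 ± 0.14 (limma adjusted p = 0.989) and Esam by 0.061 ± 0.15 (0.984). With 3 residual degrees of freedom, only large differences could pass.

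Cd44 was the most scattered member in these cells. It had 6.95 and 6.07 in aged-origin iPSC, 5.10 and 7.08 in young-origin iPSC and 7.41 and 6.75 in ESC. The 8 fibroblast and feeder markers summed to 367 and 370 on the aged-origin arrays, 389 and 637 on the young-origin arrays and 601 and 619 on the ESC arrays, against 304 to 401 on HSC arrays. In young-origin iPSC the array with the higher Cd44 had the higher feeder sum (637 against 389). In aged-origin iPSC and in ESC it had the lower sum. Those sums were close (367 and 370, 601 and 619), so their order says little. The arrays with feeder sums of 601, 619 and 637 had Cd44 of 7.41, 6.75 and 7.08, against 5.10 to 6.95 on the other pluripotent arrays. The part of feeder RNA in the Cd44 level was not tested.

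In the order of group means, Tek and Tie1 were highest in aged steady-state HSC, next in young steady-state HSC and then in transplanted HSC, and for both genes the 2 steady-state groups overlapped, as did the 2 transplanted groups. Angpt1 had that order by 1439066_at only. By 1421441_at the transplanted groups came first, with means of 10.99 in aged and 11.05 in young transplanted HSC, against 7.26 in aged and 7.25 in young steady-state HSC. By its brightest probe set, Alcam was highest in aged steady-state and aged transplanted HSC, which overlapped, then in young transplanted and young steady-state HSC, which also overlapped. Itga6 had the order aged steady-state, aged transplanted, young steady-state and young transplanted HSC, with overlap only between the middle groups. For Cxcr4 the order was young transplanted, aged transplanted, young steady-state and aged steady-state HSC, and the last pair overlapped. By the brightest probe sets, the 3 pluripotent groups came last for all 10 genes, and within them the order differed from gene to gene.

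The genes whose levels ran most like each member were listed by Pearson r over the 16 arrays, as a description only, since the arrays fall into 3 blocks of cell type and setting and share the authors' scaling. For Angpt1 they were Mecom (r = 0.997), Zhx1 (0.996) and Pde4b (0.996), for Tek Spast (0.991), Pnpla7 (0.989) and Tgfbr3 (0.989), and for Tie1 Zhx1 (0.993), Clint1 (0.992) and Ptprj (0.991). For Cxcr4 they were Adi1 (0.993), Gtpbp2 (0.990) and Tob2 (0.990). For Itga4 they were Dock8 (0.996), Mndal (0.995) and Gbp7 (0.994), and for Itgb1 Sypl (0.993), Osbpl8 (0.990) and Senp6 (0.989). Itga6 ran most like Plcl1 (0.988), Vwf (0.985), the von Willebrand factor gene, and Clca3a1 (0.984). Alcam ran most like Aldh1a1 (0.986), an aldehyde dehydrogenase gene, Cavin2 (0.986) and Uba7 (0.985). Esam ran most like Capn7 (0.987), Dcaf7 (0.987) and Dock2 (0.985), and Cd44, with the lowest values, like Fut4, Zfp275 (0.961 each) and Capn2 (0.960).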

How the data were processed

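The 16 Affymetrix arrays have a single channel; per the labels' protocols, the QIAGEN microRNeasy kit gave the RNA, and biotinylated cRNA came from 10000 cells an array. The authors deposited linear intensity values for 45101 probe sets, 64 of them controls; the steps of summarisation and scaling are not given in the sources used here. All deposited values were turned to log2 with no pseudocount. GEO's platform annotation gave 34945 probe sets exactly 1 symbol, and 18032 of 18194 gene identifiers matched RefSeq.

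Groups came from the sample labels. Each gene took its probe set with the highest mean, and genes under the 25th percentile of the mean were dropped from a fit, so that 13645 genes remained (33778 probe sets in the fits over probe sets). limma 3.58.1 in R 4.3.3 fitted the contrasts with lmFit and eBayes over the 10 HSC arrays, the 6 iPSC and ESC arrays, or all 16, and a call needed an adjusted p under 0.05 (Benjamini-Hochberg over all features tested). The fits were tested on simulated data. Alternatives covered normalisation, the dim filter, probe-set choice, the arrays in the fit, array weights, the replicate block, a pseudocount of 64 and leaving out each array.

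All 28 member probe sets were examined; of the list genes, up to 3 called genes a list and contrast were named, those with the smallest p, and for each member the 3 genes with the highest r. The members and lists were chosen with earlier results of these data known. Precision is limited by having only 2 or 3 arrays a group, and the table holds no detection calls. Where nothing says arrays came from separate animals, p-values measure only the spread between these samples. Replicate numbers were checked for pairing, and no clear pairing was seen at steady state. Deviations of same-numbered steady-state arrays correlated at 0.13, −0.16 and 0.16, and those of other pairs at between −0.26 and 0.17. With 2 arrays a group the correlations mirror each other in sign, so the check cannot decide pairing in transplanted HSC or iPSC.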

Additional observations from a re-analysis of the deposited data

Results flagged for a closer look

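Selp, the P-selectin gene of the adhesion list, was the listed gene whose age difference itself differed between the settings by limma's test. It was at 9.40 ± 0.23 in aged transplanted and 8.62 ± 0.45 in young transplanted HSC (SD, n = 2 each), against 11.37 ± 0.16 in aged and 8.02 ± 0.18 in young steady-state HSC (SD, n = 3 each). The age difference was 0.78 ± 0.25 in transplanted and 3.34 ± 0.21 in steady-state HSC, and the transplanted minus the steady-state one was −2.56 ± 0.33 (limma adjusted p = 0.0229). The 3′ to 5′ signal of control transcripts also differs between these settings, and its part in the Selp difference was not tested.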

How the results depend on the processing

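Of 1059 values of member genes under alternatives, 992 kept their direction and their side of the threshold, 41 lost the call, 14 gained it and 12 turned direction. In iPSC against steady-state HSC, 10 members were called under each alternative run except the dim filter at the 50th percentile, which left Tie1 untested and 9 called, and in the 2 comparisons among pluripotent cells 0 were. In steady-state HSC the count of members called with age was 1, and 0 with a dim filter at the 50th percentile, with the replicate block or with a 2-fold change required, and 2 with all 16 arrays in a fit, with only the arrays compared or with array weights; leaving out an array gave 0 to 1. Over all probe sets, and with probe sets averaged by gene, it was also 1, but that was Alcam and not Itga6. In transplanted HSC it was 1, and 0 with only the arrays compared, with array weights, with the replicate block or with the young transplanted numbers crossed (an alternative chosen after seeing the data); leaving out an array gave 0 to 2. Over all probe sets it was also 1, but that was Alcam and not Esam (adjusted p = 0.0591). Averaged over both settings it was 1, and 0 with the filter at the 50th percentile, array weights, the block, crossed numbers or 2-fold change, and 2 with all 16 arrays; leaving out an array gave 0 to 2. For the difference of age differences it was 0, and 1 with all 16 arrays; leaving out an array gave 0 to 3. Between settings it was 9, 7 with probe sets averaged by gene and 4 with a 2-fold change required; leaving out an array gave 8 to 9, and quantile normalisation ended the call of Esam (−0.32, limma adjusted p = 0.0686). Averaging the probe sets of a gene turned the difference between settings for Angpt1 (0.95), Itga4 (2.13) and Alcam (−0.26), ended the calls of Cd44 (−0.20, limma adjusted p = 0.133) and Itga6 (−0.27, 0.131), and turned the age difference of Itga4 in transplanted HSC (−0.019); centring turned Alcam between settings (−0.060). With an array left out, the age difference ran from −0.023 (without aged array 2) to 0.28 for Tie1 at steady state. In transplanted HSC it ran from −1.06 to 0.71 for Tek (0.71 without young array 2), from −0.35 to 0.56 for Tie1 (−0.35 without aged array 2), from −0.35 to 0.85 for Itga4 and from −0.12 to 1.55 for Cd44 (both lowest without young array 1). Cd44 in transplanted HSC passed without young array 2 (1.55, limma adjusted p = 0.0111). For these the cause was not tested, apart from the fewer arrays or other probe sets that the alternatives use. With age, 161 genes of the table were called at steady state (78 to 257 with an array left out), and 184 in transplanted HSC (47 to 1467). No clear pairing by number was seen at steady state, and in transplanted HSC the check could not decide. The replicate block gave 94 genes at steady state and 28 in transplanted HSC. Signal near background limits the fold changes of Angpt1, Tie1, Itga4 and Cxcr4 in pluripotent cells, and of the listed genes under the dim line.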
